A study of Mus musculus with 24 samples.

Results

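The 45 genes described here encode the cytosolic aminoacyl-tRNA synthetases and a set of translation factors, out of 21671 genes in the deposited expression table. They were taken from a fixed list of names, and all 45 were found in the table and passed the filter on low values. By role they comprise 8 synthetases of the multi-synthetase complex, 12 other synthetases, 3 scaffold proteins of that complex, 4 elongation factors, 6 subunits of eIF2 and its exchange factor eIF2B, 4 subunits of eIF3, 5 proteins of cap binding and scanning, and 3 factors of subunit joining and related steps.

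RNA-seq was made from 3T9 cells, an immortalised line of mouse fibroblasts, in 24 libraries that form 8 groups of 3. The cells had been infected with an empty vector (EV) or with a vector for MycER, in which Myc is joined to the part of the oestrogen receptor that binds hormone, in the WT, HEA or RA form. All groups, EV included, received 4-hydroxytamoxifen (OHT), the ligand that switches MycER on, for 4 h or 8 h. The question, as known of the study, is how far Myc-driven transcription needs each kind of contact between Myc and DNA: HEA carries changes in residues that read the bases of the E-box, and RA carries changes in arginines that touch the DNA backbone. No libraries without OHT were used here. The cells keep their own Myc gene, and the labels do not say whether the infected cells were a clone, or whether a group's 3 libraries are separate cultures, so the p-values rest on a spread between libraries that may be technical.

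Each synthetase attaches its amino acid to the matching tRNA, and several synthetases are held together by scaffold proteins in the multi-synthetase complex. Initiation starts when eIF2 brings the initiator tRNA to the small ribosomal subunit and the eIF4 proteins recruit the mRNA by its cap. The exchange factor eIF2B recharges eIF2 with GTP, and stress kinases block that step by phosphorylating the alpha subunit of eIF2. Elongation factors then deliver charged tRNAs and move the ribosome along. Myc binds DNA with its partner Max, prefers the E-box CACGTG, and is widely known to raise genes of protein synthesis.

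The promoters were searched for the E-box, whose bases the residues altered in HEA contact. RefSeq (build GRCm38.p6) gave the bases before the gene start for 32 of the 45 genes. In the 250 bases upstream of a start, CACGTG (its own reverse complement, so that both strands read alike) occurred in 8 of the 32, or 25%, and in 6.86% of 27025 genes. The related CACGCG, searched on both strands (CGCGTG on the other) and unable by its letters to overlap CACGTG, occurred in 4 of the 32, or 12.5%, and in 8.65% of all genes. The 27025 are all genes with a sequence, expressed or not, whereas the 45 all passed the filter on low values. Where a gene had several starts, a match at any of them counted. A match is a description of the letters and not evidence of binding, and no binding data were used here. Of the 8 genes with CACGTG, 5 rose in WT cells at 8 h (Eif4a1, Eif4g1, Eif5a, Farsb and Iars) and Aars, Eef2 and Eif4e did not pass. Of the 4 with CACGCG, Eif4g1, Eprs and Farsa rose and Eif4e did not pass. In the same comparison 14 of all 45 genes rose, as did 15.2% of all genes tested. The calls of Eif4a1, Eif4g1, Farsb and Iars were lost in 8, 9, 6 and 7 of 18 alternative fits. Those of Eif5a, Eprs and Farsa were lost in 0. Whether the motif bears on the rise was not tested. Every window of 60 bases around a match that held no annotated exon is shown, whatever the gene did. This leaves out Aars, the CACGTG matches of Eif4e and a further CACGTG match of Eif5a. The motif is in capitals, and each sequence runs 5′ to 3′ on the strand of its gene.
Farsb, chr1:78488904-78488963, minus strand: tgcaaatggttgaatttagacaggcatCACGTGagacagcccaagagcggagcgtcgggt
Eef2, chr10:81176561-81176620, plus strand: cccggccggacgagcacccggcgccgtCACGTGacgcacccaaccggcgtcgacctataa
Eif4a1, chr11:69672580-69672639, minus strand: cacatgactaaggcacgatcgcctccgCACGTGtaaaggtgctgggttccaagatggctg
Eif5a, chr11:69921428-69921487, minus strand: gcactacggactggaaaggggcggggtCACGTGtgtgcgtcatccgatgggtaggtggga
Iars, chr13:49682034-49682093, plus strand: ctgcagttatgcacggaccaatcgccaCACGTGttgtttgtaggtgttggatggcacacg
Eif4g1, chr16:20672646-20672705, plus strand: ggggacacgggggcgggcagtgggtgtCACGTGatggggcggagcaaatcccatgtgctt
Eif4g1, chr16:20672525-20672584, plus strand: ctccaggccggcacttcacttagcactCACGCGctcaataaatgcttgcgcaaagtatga
Eif4e, chr3:138526014-138526073, plus strand: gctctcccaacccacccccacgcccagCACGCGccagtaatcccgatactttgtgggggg
Farsa, chr8:84856922-84856981, plus strand: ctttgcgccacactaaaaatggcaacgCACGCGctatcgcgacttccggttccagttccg
Eprs, chr1:185362960-185363019, plus strand: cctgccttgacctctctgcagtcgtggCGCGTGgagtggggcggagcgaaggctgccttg

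Values are RPKM, reads scaled by gene length and by library total, and the totals recovered from the RPKM steps ran from 9.82 to 12.8 M reads. Esr1, the gene of the receptor whose hormone-binding part the fusion carries, read 0.099 to 0.385 RPKM in the 6 EV libraries and 9.04 to 13.7 RPKM in the 18 MycER libraries, which separates EV from MycER but checks neither the form of MycER nor the time. Myc itself read 29 to 68.3 RPKM over all libraries and was lower in WT than in EV (-0.60 on the log2 scale at 8 h, adjusted p = 0.00754). The summed level of 10 fibroblast markers was 589 to 765 RPKM in every library, with the defining Thy1 (mean 0.179 RPKM) and Lum (0.00569 RPKM) near 0. Epithelial and endothelial marker sums stayed at 0.634 and 0.639 RPKM or below. Macrophage, muscle and adipocyte sums stayed at 16.8, 9.13 and 6.29 RPKM or below, with the defining Ptprc, Emr1, Myod1 and Adipoq at or near 0. Other markers of these lists were expressed: Cd68 and Csf1r (macrophage, means of 10.9 and 1.35 RPKM), Acta1 (muscle, 4.09) and Fabp4 (adipocyte, 3.51). The libraries farthest from their group means were WT at 4 h replicate 3, WT at 8 h replicate 3 and EV at 4 h replicate 2, with root mean square deviations of 0.258, 0.244 and 0.235 on the log2 scale against 0.134 to 0.223 for the others. Counts without these 3 libraries stand beside the comparisons between vectors and over time.

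Differences below are limma estimates on the log2(RPKM + 0.5) scale with their standard error (SE), and "rose" or "fell" means a Benjamini-Hochberg adjusted p under 0.05 over all 12268 genes tested. In WT cells at 8 h, 6 of 20 synthetases, 2 of 4 elongation factors, 3 of 6 subunits of eIF2 and eIF2B, 2 of 5 genes of the eIF4 group and 1 of 4 eIF3 subunits rose above EV, and the cysteine synthetase Cars fell. At 8 h, 14 of the 45 rose, where 15.2% of all genes tested rose, and 1 fell, where 20.1% fell. At 4 h, 14 rose against 11.6% of all genes and 2 fell against 14.4% (26.1% in either direction). The share called in either direction at 8 h, 15 of 45, was close to the 35.2% of all genes. Their median difference was 0.13 at 8 h and 0.11 at 4 h, beside medians of -0.02 and -0.01 for all genes. Leaving out the 3 libraries named above gave 6 higher and 0 lower at 4 h, beside 20% of all genes in either direction. At 8 h it gave 10 higher and 3 lower, beside 36.2%. Leaving out single libraries, the count called at 4 h fell from 16 to 5 without WT replicate 3 (16.6% of all genes). It fell to 10 without EV replicate 3 (20.9%). At 8 h the count fell from 15 to 8 without EV replicate 2 (31.1%) or 3 (27.2%). WT, HEA and RA were compared with the same EV libraries and share their error.

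**Figure D1:**
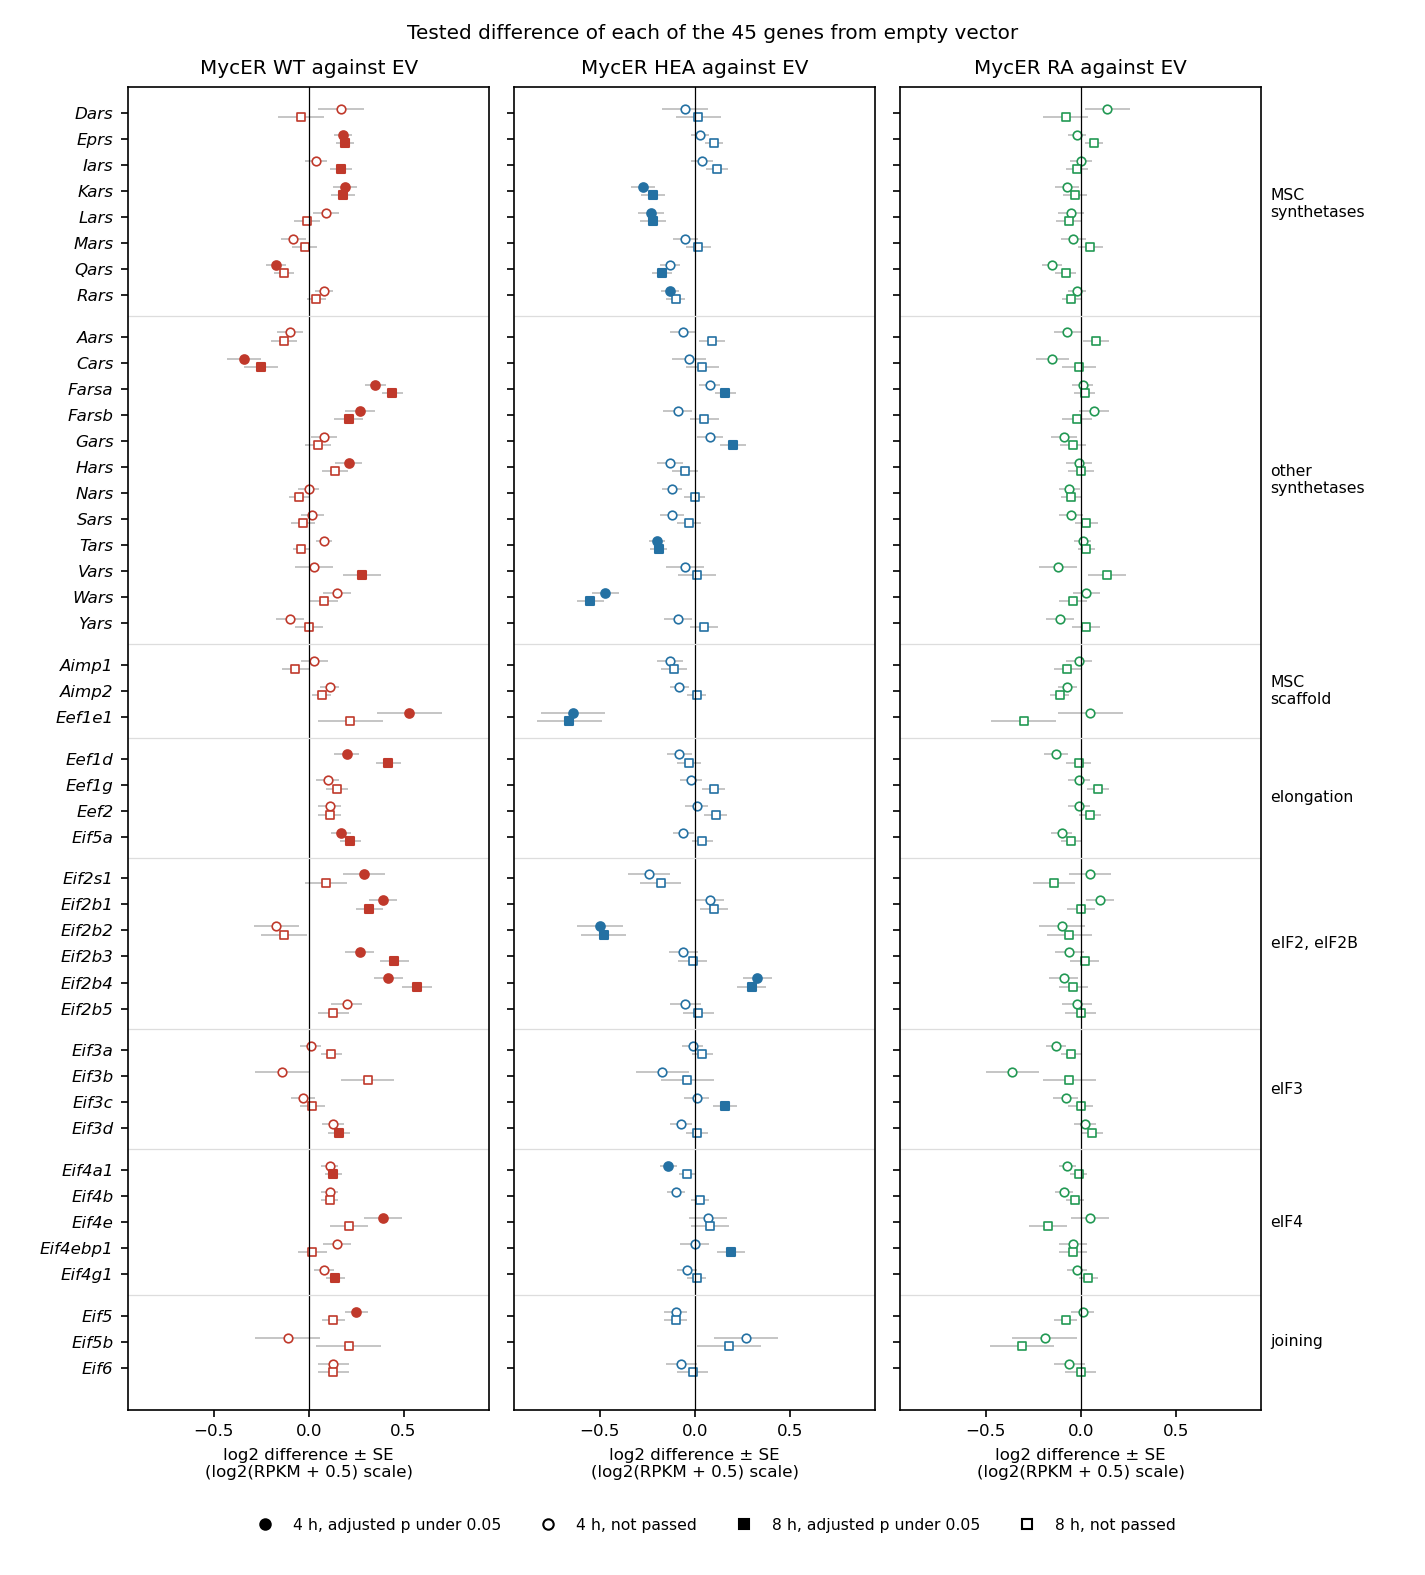
Tested difference from EV (log2(RPKM + 0.5) scale, horizontal axis, bars ± SE) of each of the 45 genes, for WT, HEA and RA at 4 h (circles) and 8 h (squares), with filled symbols for an adjusted p under 0.05. Filled symbols lie mostly to the right for WT, to the left for HEA at 4 h, and are missing for RA.

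Among the synthetases in WT, the smallest p against EV was that of a phenylalanine enzyme subunit. Farsa, the catalytic alpha subunit of phenylalanyl-tRNA synthetase, stood at 8 h at 32.5, 32.4 and 33.3 RPKM in EV, 45.5, 43.7 and 44.8 in WT, 34.7, 37.2 and 37.9 in HEA, and 34.4, 31.4 and 34.1 in RA. At 4 h the same gene read 34.2, 33.6 and 33 in EV, 42.2, 43.6 and 43.3 in WT, 35.7, 37.5 and 34 in HEA, and 32.5, 36.3 and 33 in RA. All 6 WT libraries lay above all 18 others, and HEA lay between EV and WT at 8 h. Farsa rose in WT by 0.44 ± 0.055 at 8 h (adjusted p = 4.04e-06), a fold of 1.36, and by 0.35 ± 0.055 at 4 h (adjusted p = 0.000111). Farsb, the beta subunit of the same enzyme, went from 31.7 ± 0.938 RPKM (SD, n = 3) in EV to 36.8 ± 2.36 in WT at 8 h, a rise of 0.21 ± 0.077 (adjusted p = 0.0355). At 4 h Farsb rose by 0.27 ± 0.077 (adjusted p = 0.0133). Its 8 h call was lost without any 1 EV library or WT replicate 1 or 2, and its 4 h call without EV replicate 3 or WT replicate 3. One of its exons overlaps Sgpp2 on the opposite strand, which rose by 0.71 ± 0.21 at 8 h, and since no source used here gives the strand setting of the counting, the part of those reads in Farsb was not tested.

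Of the 8 synthetases in the multi-synthetase complex, 3 rose and none fell in WT at 8 h by limma. At an unadjusted p under 0.05 there were 4, the 3 that rose and Qars, which was lower in WT. Eprs, the bifunctional enzyme that charges tRNAs with glutamate and with proline, read 45.2, 45.7 and 43.7 RPKM in EV, 51.7, 51.5 and 50.3 in WT, 47.8, 46.6 and 49.5 in HEA and 48.4, 46.2 and 46.5 in RA at 8 h. Its 4 h values were 52.1, 50.3 and 50.3 in EV, 55.1, 57.5 and 60.4 in WT, 49.5, 53.5 and 52.9 in HEA and 48, 51.8 and 51.3 in RA. WT was the highest group at both times and overlapped none of the others, and the whole 8 h set lay lower than the 4 h set in EV and WT. The rise in WT was 0.19 ± 0.048 at 8 h (adjusted p = 0.00465) and 0.18 ± 0.048 at 4 h (adjusted p = 0.00976). Kars, for lysine, rose by 0.18 ± 0.063 (adjusted p = 0.0332) from 67.2 ± 4.25 to 75.9 ± 1.37 RPKM (SD, n = 3 each) at 8 h and by 0.19 ± 0.063 at 4 h. Iars, for isoleucine, rose by 0.17 ± 0.058 at 8 h (adjusted p = 0.0312) and differed by 0.04 ± 0.058 at 4 h (adjusted p = 0.635). Qars, for glutamine, fell at 4 h (-0.17 ± 0.053, adjusted p = 0.0226), with -0.13 ± 0.053 at 8 h (adjusted p = 0.072). Without WT replicate 3 of its time, the calls of Kars at both times, of Iars at 8 h and of Eprs and Qars at 4 h were lost. Single EV libraries also decided Kars (replicates 1 and 3 at 4 h, 2 at 8 h), Iars (1 and 3) and Qars (2 and 3), and Kars at 8 h was lost without WT replicate 1.

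The 12 synthetases outside the complex gave 3 higher and 1 lower in WT at 8 h. Besides Farsa and Farsb, Vars, for valine, rose by 0.28 ± 0.1 at 8 h (adjusted p = 0.0343), and Hars, for histidine, rose at 4 h by 0.21 ± 0.069 (adjusted p = 0.0334). The Vars call was lost without any 1 EV library or WT replicate 3, and the Hars call without EV replicate 1 or 3 or WT replicate 3. Cars, for cysteine, was the member that fell at both times. It went from 51.8 ± 6.02 to 40.7 ± 4.42 RPKM (SD, n = 3) at 4 h, a fall by 0.34 on the log2 scale (SE 0.088, adjusted p = 0.00681), and from 50.8 ± 0.779 to 42.7 ± 4.28 at 8 h (-0.25 ± 0.088, adjusted p = 0.0305). HEA and RA libraries overlapped or lay above EV for Cars at 8 h. The 4 h fall did not pass without EV replicate 2 or without WT replicate 3, and the 8 h fall did not pass without any 1 of the EV libraries, without WT replicate 1 or 2, or after median centring. Of the 12 synthetases listed as known targets of the stress factor ATF4, 2 rose and 1 fell in WT at 8 h (median -0.02). Of the other 8 synthetases 4 rose and 0 fell (median 0.16). An unadjusted p under 0.05 was reached by 5 of those 8, among them Qars, which was lower in WT, and by 8 of all 20 synthetases. Over all genes tested 15.2% rose and 20.1% fell. Among the other 8, Farsb, Kars and Vars lost their calls in 6, 5 and 7 of 18 alternatives. Among the 12, Iars and Cars lost theirs in 7 each.

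The 3 scaffold proteins of the complex gave 0 calls in WT at 8 h by limma and 0 at an unadjusted p under 0.05, and voom called neither Aimp2 nor Eef1e1. Eef1e1, the smallest of them, which also acts in the response to DNA damage, read 58, 56.5 and 41.1 RPKM in WT and 45.6, 43.2 and 43 in EV at 8 h, so that WT replicate 3 lay below EV and the other WT libraries above. At 4 h it rose by 0.53 ± 0.17 (adjusted p = 0.0293), from 38, 29.3 and 42.9 in EV to 43.5, 55.4 and 60.1 in WT, and this did not pass without EV replicate 2, WT replicate 2 or WT replicate 3. Aimp2 differed from EV by 0.07 ± 0.05 at 8 h (adjusted p = 0.299).

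Both elongation genes that rose at 8 h also rose at 4 h by limma. Eef1d, the delta subunit of the exchange factor that recharges eEF1A, read 41.2, 41.4 and 41.1 RPKM in EV, 54.3, 53.5 and 58 in WT, 41.1, 40.3 and 39.5 in HEA and 42, 41.4 and 39.9 in RA at 8 h. The 4 h libraries read 40, 47.2 and 41.3 in EV, 50.3, 52.4 and 45.3 in WT, 42.7, 41.2 and 37.2 in HEA and 38.1, 39.7 and 39.2 in RA. WT stood clear of the other forms at 8 h, while at 4 h WT replicate 3 lay below EV replicate 2. The rise was 0.42 ± 0.065 at 8 h (adjusted p = 4.68e-05), a fold of 1.34, and 0.20 ± 0.065 at 4 h (adjusted p = 0.0252), the latter lost in 7 of 18 alternatives. An exon of Eef1d overlaps Naprt on the same strand, and Naprt rose by 0.92 ± 0.22 in WT at 8 h (adjusted p = 0.00249). Its part in the Eef1d reads was not tested. Eif5a, the hypusine-bearing factor that helps ribosomes past difficult peptide bonds, read 89.2, 84.5 and 87.9 in EV, 98.6, 97.6 and 108 in WT, 90.2, 89.7 and 89.1 in HEA and 84.4, 83.3 and 84.5 in RA at 8 h. The 4 h values of Eif5a were 85.6, 96 and 87.7 in EV, 98.5, 100 and 103 in WT, 88.9, 84.9 and 83.9 in HEA and 76.3, 86.7 and 88.4 in RA. All WT libraries exceeded all others at both times. Eif5a rose by 0.22 ± 0.054 at 8 h (adjusted p = 0.00399) and by 0.17 ± 0.054 at 4 h (adjusted p = 0.0286). The 4 h call was lost in 8 of 18 alternatives. The exchange-factor subunit Eef1g (0.15 ± 0.059 at 8 h, adjusted p = 0.0568) and the translocase Eef2 (0.11 ± 0.059, adjusted p = 0.155) did not pass at either time.

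**Figure D2:**
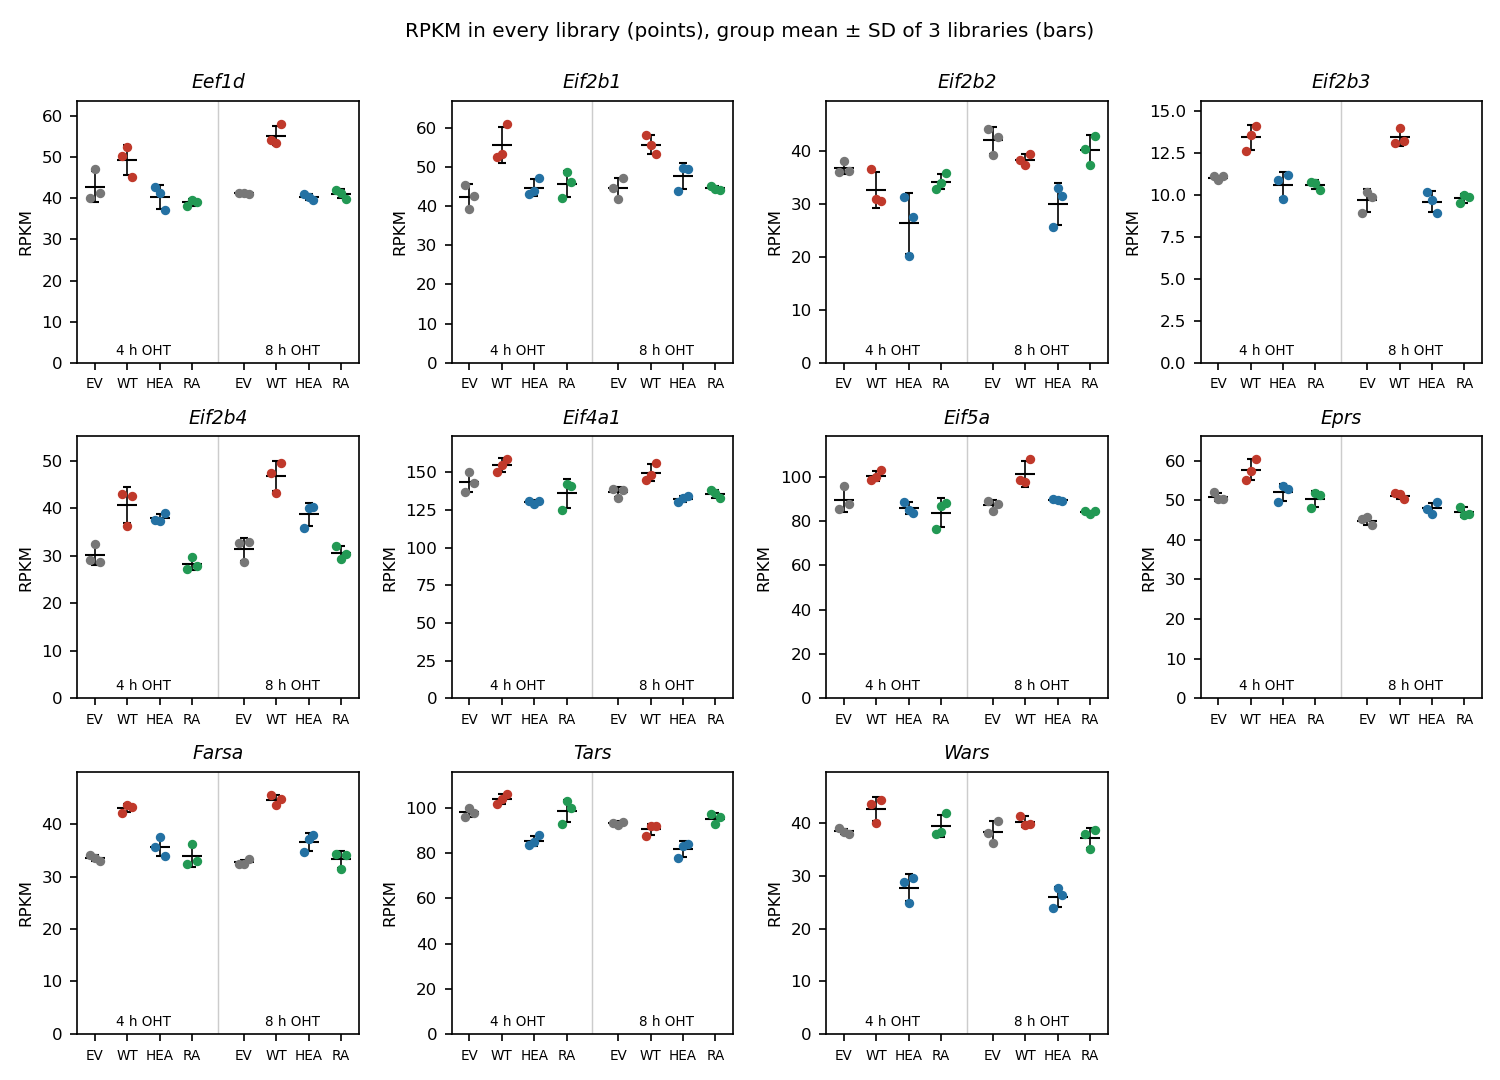
RPKM (vertical axis, from 0) in each of the 24 libraries for 11 genes, grouped by vector and by time in OHT, with the mean and SD of the 3 libraries as bars. WT stands highest for Farsa, Eprs, Eef1d, Eif5a and 3 eIF2B subunits at 8 h, HEA stands lowest for Wars, Tars and Eif2b2, and Eif2b4 is raised in both.

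The subunits of eIF2B did not move as a unit. The regulatory subunits Eif2b1 (alpha) and Eif2b4 (delta) and Eif2b3 (gamma, part of the catalytic core) rose in WT at both times. Eif2b5 (epsilon, the catalytic subunit; 0.13 ± 0.081 at 8 h, adjusted p = 0.213) and Eif2b2 (beta; -0.13 ± 0.12, adjusted p = 0.42) did not pass. In all, 3 of 6 genes of eIF2 and eIF2B rose at 8 h and 4 of 6 at 4 h, with none lower. Eif2b4 read 32.6, 28.6 and 33 RPKM in EV, 47.5, 43.3 and 49.5 in WT, 35.9, 40 and 40.3 in HEA and 32.1, 29.3 and 30.3 in RA at 8 h. At 4 h Eif2b4 read 29.2, 32.5 and 28.7 in EV, 43.1, 36.3 and 42.6 in WT, 37.5, 37.4 and 39 in HEA and 27.3, 29.7 and 27.8 in RA. WT and HEA lay above every EV and RA library at both times, and they overlapped each other at 4 h alone. Its rise in WT, 0.57 ± 0.077 at 8 h (adjusted p = 1.11e-05) and 0.42 ± 0.077 at 4 h (adjusted p = 0.000444), was the largest of the 45 at 8 h, a fold of 1.48. An exon of Eif2b4 overlaps Snx17 on the opposite strand, and Snx17 differed by -0.07 ± 0.055 at 8 h (adjusted p = 0.312).

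Eif2b3, the least abundant of the 45 genes, read 8.93, 10.2 and 9.9 RPKM in EV, 13.1, 14 and 13.2 in WT, 10.2, 9.67 and 8.95 in HEA and 9.5, 9.99 and 9.89 in RA at 8 h. The 4 h libraries held 11.1, 10.9 and 11.1 in EV, 12.6, 13.6 and 14.1 in WT, 10.9, 9.73 and 11.2 in HEA and 10.8, 10.7 and 10.3 in RA. WT lay above all other libraries at both times, and HEA and RA overlapped EV at 8 h. Eif2b3 rose by 0.45 ± 0.076 at 8 h (adjusted p = 9.74e-05) and by 0.27 ± 0.076 at 4 h (adjusted p = 0.0117), the latter lost without WT replicate 3. Eif2b1 read 44.6, 41.8 and 47.3 in EV, 58.2, 55.6 and 53.3 in WT, 43.9, 49.8 and 49.6 in HEA and 45.2, 44.5 and 44.2 in RA at 8 h. For the same subunit the 4 h values were 45.5, 39.2 and 42.7 in EV, 52.6, 53.4 and 60.9 in WT, 43, 44 and 47.2 in HEA and 42.1, 48.8 and 46.1 in RA. WT again exceeded every other library, with a rise of 0.32 ± 0.073 at 8 h (adjusted p = 0.00197) and 0.39 ± 0.073 at 4 h (adjusted p = 0.000642). Eif2s1, the alpha subunit of eIF2 itself, rose at 4 h by 0.29 ± 0.11 (adjusted p = 0.0487), with 0.09 ± 0.11 at 8 h (adjusted p = 0.519). The 4 h call of Eif2s1 was lost without EV replicate 2 or WT replicate 2 or 3.

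In the cap-binding group 2 of 5 genes rose in WT at 8 h, and in eIF3 1 of 4. Eif4a1, the helicase that unwinds the leader of the mRNA, read 139, 133 and 138 RPKM in EV, 145, 148 and 156 in WT, 130, 133 and 134 in HEA and 138, 136 and 133 in RA at 8 h. At 4 h Eif4a1 read 137, 150 and 143 in EV, 150, 155 and 159 in WT, 131, 129 and 131 in HEA and 125, 142 and 141 in RA. By its mean WT was the highest group and HEA the lowest at both times, with WT meeting EV at 150 RPKM at 4 h and HEA overlapping RA. The rise in WT at 8 h was 0.13 ± 0.045 (adjusted p = 0.0292), and the scaffold Eif4g1, which joins cap and helicase, rose by 0.14 ± 0.051 (adjusted p = 0.0436). The eIF3 subunit Eif3d, which can itself bind some caps, rose by 0.16 ± 0.058 at 8 h (adjusted p = 0.0318). These 3 calls were lost without WT replicate 3, without EV replicate 2 and without EV replicate 3. Eif4e, the cap-binding protein, rose at 4 h by 0.39 ± 0.1 (adjusted p = 0.0079), from 52.9 ± 6.75 to 69.2 ± 7.93 RPKM (SD, n = 3), with 0.21 ± 0.1 at 8 h (adjusted p = 0.113). The Eif4e call was lost without EV replicate 2 or WT replicate 3. Eif5, the GTPase activator of eIF2, rose at 4 h by 0.25 ± 0.06 (adjusted p = 0.00439), with 0.13 ± 0.06 at 8 h (adjusted p = 0.0933). Eif6, which keeps free large subunits from joining too early, differed by 0.13 ± 0.081 at 8 h (adjusted p = 0.207), and Eif3b by 0.31 ± 0.14 (adjusted p = 0.0928).

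In HEA cells, Wars, Tars, Kars, Lars, Eif2b2 and Eef1e1 fell below EV at both times and Eif2b4 rose. At 8 h, 5 of the 45 rose and 7 fell, where 20.2% of all genes rose and 27.5% fell. At 4 h, 1 rose and 8 fell, beside 17.7% and 25.5% of all genes. The median difference of the 45 was 0.01 at 8 h and -0.07 at 4 h, beside -0.05 and -0.06 for all genes. The split by direction moved with the scaling: at 8 h it was 9 higher and 3 lower after median centring, 7 and 7 after quantile normalisation, and 8 and 7 after the depth trend (of each library's deviations on reads per base) was taken out, which at 4 h gave 4 and 7. Leaving out the 3 libraries that stood apart gave 6 higher and 8 lower at 8 h (54.7% of all genes in either direction). At 4 h it gave 3 and 7 (48.2%). The number higher at 8 h fell to 1 without EV replicate 2, HEA replicate 2 or HEA replicate 3 and to 2 or 3 without EV replicate 3 or 1, and the number lower fell to 4 without HEA replicate 1.

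Wars, for tryptophan, had the smallest p among the synthetases in HEA. It read 38.1, 36.2 and 40.5 RPKM in EV, 41.4, 39.6 and 39.9 in WT, 23.9, 27.7 and 26.4 in HEA and 37.9, 35 and 38.7 in RA at 8 h. At 4 h Wars read 39, 38.4 and 38 in EV, 43.6, 40.1 and 44.4 in WT, 28.9, 24.8 and 29.6 in HEA and 38, 38.4 and 41.9 in RA. Each of the 6 HEA libraries lay below each of the 18 others. The fall was 0.684-fold at 8 h (log2 -0.55 ± 0.072, adjusted p = 3.49e-06) and 0.723-fold at 4 h (-0.47 ± 0.072, adjusted p = 2.82e-05). Tars, for threonine, read 93.5, 92.3 and 94 in EV, 87.6, 91.9 and 92.2 in WT, 77.9, 83.4 and 84.2 in HEA and 97.4, 92.8 and 95.9 in RA at 8 h. Its 4 h values were 96.2, 100 and 98 in EV, 102, 104 and 106 in WT, 83.8, 84.9 and 88 in HEA and 93.1, 103 and 100 in RA. HEA was the lowest group at both times without overlap, by -0.19 ± 0.043 at 8 h (adjusted p = 0.00128) and -0.20 ± 0.043 at 4 h (adjusted p = 0.000982). Kars fell in HEA by 0.22 on the log2 scale at 8 h (SE 0.063, adjusted p = 0.0074) and by 0.27 at 4 h (adjusted p = 0.00184), and Lars, for leucine, fell by 0.22 (SE 0.068, adjusted p = 0.0119) and by 0.23 (adjusted p = 0.0103). Qars fell at 8 h (-0.17 ± 0.053, adjusted p = 0.0119) and Rars, for arginine, at 4 h (-0.13 ± 0.049, adjusted p = 0.0374). The 8 h falls of Kars, Lars, Tars and Qars did not pass after median centring, and those of Kars, Lars and Qars not without HEA replicate 1. At 4 h the Lars call was lost without EV replicate 2 or HEA replicate 1. The Rars call was lost in 11 of 18 alternatives, among them the omission of any 1 EV library.

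Among the factors, Eef1e1 and Eif2b2 fell in HEA and Eif2b4 rose. Eef1e1 read 25, 29.9 and 28.1 RPKM in HEA at 8 h, below all EV libraries, a fold of 0.633 (-0.66 ± 0.17, adjusted p = 0.00387). At 4 h it read 27.5, 16.6 and 27.3 in HEA (-0.64 ± 0.17, adjusted p = 0.00565), which did not pass without HEA replicate 2, the lowest library. Eif2b2 read 44.2, 39.2 and 42.7 in EV, 38.3, 37.4 and 39.4 in WT, 25.6, 33 and 31.4 in HEA and 40.4, 37.3 and 42.8 in RA at 8 h. At 4 h this subunit read 36.1, 38.1 and 36.3 in EV, 36.5, 30.9 and 30.5 in WT, 31.3, 20.1 and 27.6 in HEA and 32.9, 33.9 and 35.8 in RA. HEA lay below EV and RA at both times, and overlapped WT at 4 h. The fall was -0.48 ± 0.12 at 8 h (adjusted p = 0.00203) and -0.50 ± 0.12 at 4 h (adjusted p = 0.00178). Eif2b4 rose by 0.30 ± 0.077 at 8 h (adjusted p = 0.00341) and by 0.33 ± 0.077 at 4 h (adjusted p = 0.00179), so that subunits of 1 complex went in opposite directions in the same cells. The other members higher in HEA at 8 h were Farsa (0.16 ± 0.055, adjusted p = 0.0237; lost without EV replicate 1 or 2 or HEA replicate 2 or 3), Gars for glycine (0.20 ± 0.069, adjusted p = 0.024), Eif3c (0.16 ± 0.065, adjusted p = 0.0477) and Eif4ebp1, the inhibitor of Eif4e (0.19 ± 0.075, adjusted p = 0.0458). The calls of Gars and Eif4ebp1 were lost without EV replicate 2 or 3 or HEA replicate 2 or 3, and that of Eif3c without any 1 library of either group. Eif4a1 fell at 4 h (-0.14 ± 0.045, adjusted p = 0.0185; lost without EV replicate 2 or HEA replicate 2 and after median centring) and differed by -0.04 ± 0.045 at 8 h (adjusted p = 0.461).

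RA gave no call among the 45 at either time by limma, beside 5.31% of all genes at 4 h (2.58% higher, 2.73% lower) and 2.78% at 8 h (1.49% higher, 1.29% lower). At an unadjusted p under 0.05 there were 3 at 4 h (Eif3a, Eif3b and Qars) and 1 at 8 h (Aimp2), and voom called 0 at both times, as did the fit without the 3 libraries that stood apart. The differences from EV ran from -0.36 (Eif3b) to 0.14 (Dars) at 4 h and from -0.31 (Eif5b) to 0.14 (Vars) at 8 h. For Farsa the 95% interval of the RA difference at 8 h was -0.09 to 0.14 around 0.02, and for Eif2b4 it was -0.20 to 0.12 around -0.04, intervals that lie below the WT differences. For Wars it was -0.19 to 0.11 around -0.04.

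The direct comparison of WT with HEA does not use EV, and most of its calls were higher in WT. At 4 h, 24 of the 45 were higher in WT and 1 lower, beside 26.9% and 22.6% of all genes, and at 8 h 21 were higher and 2 lower, beside 24.6% and 23.4%. Medians were 0.20 and 0.13, beside 0.03 and 0.01 for all genes. Eef1e1 differed most, by 1.16 ± 0.17 at 4 h (adjusted p = 1.47e-05), a fold of 2.24, and by 0.88 ± 0.17 at 8 h (adjusted p = 0.000266). Wars differed by 0.61 ± 0.072 (adjusted p = 6.91e-07) and 0.62 ± 0.072 (adjusted p = 4.16e-07), and Kars by 0.46 ± 0.063 (adjusted p = 5.11e-06) and 0.39 ± 0.063 (adjusted p = 2.52e-05). Of the 6 genes of eIF2 and eIF2B, 5 were higher in WT at each time. The 4 h calls of Eif2b2 and Eif2b5 were each lost in 5 of 18 alternatives, and the 8 h call of Eif2s1 in 6. Eif2b4 was higher in WT at 8 h (0.27 ± 0.077, adjusted p = 0.00713), with an interval of -0.07 to 0.26 around 0.10 at 4 h. Members lower in WT than in HEA were Cars at 4 h (-0.31 ± 0.088, adjusted p = 0.00585) and 8 h (-0.29 ± 0.088, adjusted p = 0.00979) and Aars, for alanine, at 8 h (-0.21 ± 0.069, adjusted p = 0.0149). These calls were lost without WT replicate 3 (Cars at 4 h), WT replicate 1 (both at 8 h) or HEA replicate 3 (Aars). The 4 h split became 15 higher and 3 lower after quantile normalisation and 13 and 4 after the depth trend was taken out, and the 8 h split 18 and 6, and 19 and 5. Without the libraries that stood apart the split was 21 and 1 at 4 h (44.6% of all genes in either direction) and 19 and 4 at 8 h (51.4%). Without HEA replicate 1 the 8 h count fell to 10 higher and 2 lower (41.6%).

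Against RA, WT was higher for 17 of the 45 at 4 h and lower for 0, beside 15% and 19.9% of all genes, and higher for 19 and lower for 2 (Aars and Cars) at 8 h, beside 17.3% and 24.4%. The leading genes were Eif2b4 (0.60 ± 0.077 at 8 h, adjusted p = 3.64e-06), Eif2b3 (0.44 ± 0.076, adjusted p = 0.000106), Farsa (0.42 ± 0.055, adjusted p = 5.41e-06) and Eef1d (0.42 ± 0.065, adjusted p = 2.87e-05). Eif4e (0.39 ± 0.1, adjusted p = 0.0044), which did not pass against EV at 8 h, was higher in WT than in RA. The falls of Aars and Cars did not pass after median centring or without WT replicate 1, WT replicate 2 or RA replicate 1. Without RA replicate 1 the 4 h count was 11, beside 26.5% of all genes in either direction. Without the libraries that stood apart the split was 16 and 0 at 4 h (35.1%) and 17 and 2 at 8 h (45.3%). HEA against RA gave 3 higher and 7 lower at 4 h, beside 18% and 28.3% of all genes (46.3% in either direction), and 5 and 4 at 8 h, beside 17.9% and 27% (44.9%), which became 4 and 4, and 9 and 3, after median centring. Wars (-0.51 ± 0.072, adjusted p = 9.57e-06) and Tars (-0.22 ± 0.043, adjusted p = 0.000332) led the genes lower in HEA at 8 h, and Eif2b4 (0.34 ± 0.077, adjusted p = 0.00142) those higher. The 4 h count of 10 fell to 6 without HEA replicate 1, beside 39.7% of all genes. It fell to 5 without HEA replicate 2 (38.9%) or RA replicate 2 (39.5%). The split without the libraries that stood apart was 4 and 9 at 4 h (53.5%) and 8 and 5 at 8 h (51.6%).

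**Figure D3:**
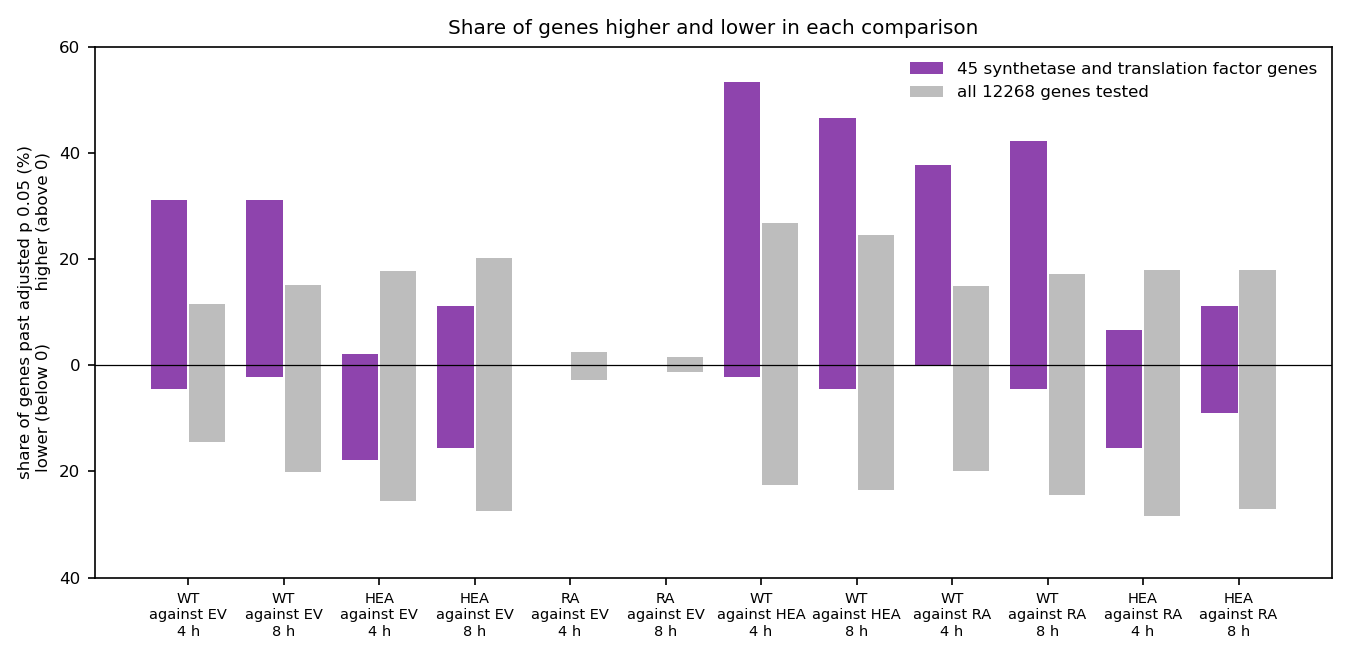
Share (%) of the 45 genes (purple) and of all 12268 genes tested (grey) that were higher (above 0) or lower (below 0) at an adjusted p under 0.05, in the 12 comparisons between vectors at 4 h and 8 h. The purple bars exceed the grey above 0 wherever WT is set against another vector, fall short of the grey on both sides for HEA against EV, and are missing for RA against EV.

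Few members changed with time in OHT. From 4 h to 8 h no member passed in EV, HEA or RA by limma, beside 0.0245%, 3.33% (1.26% higher, 2.08% lower) and 0.22% of all genes, with 4, 4 and 0 at an unadjusted p under 0.05. In WT, Tars fell by 0.20 on the log2 scale (SE 0.043, adjusted p = 0.00881) and Eprs by 0.17 (SE 0.048, adjusted p = 0.0332), where 8.46% of all genes were called, 4.46% higher and 4% lower. In EV, Eprs differed with time by -0.18 ± 0.048 (adjusted p = 0.175), and the difference between the WT effect at 8 h and at 4 h passed for no member, beside 0.0163% of all genes. At an unadjusted p under 0.05 that difference of effects held 2 members, Eef1d (0.21 ± 0.092, adjusted p = 0.408) and Eif3b (0.45 ± 0.2, adjusted p = 0.411). The same difference for HEA and for RA passed for no member, with 0 unadjusted, and voom called 0 in all 3. The WT time count of 2 fell to 0 with a block for replicate number, beside 1.33% of all genes called. It was also 0 with only the groups compared (0%) and without WT replicate 1 of 8 h (2.36%). It fell to 1 without WT replicate 2 of 8 h (6.82%) or WT replicate 3 of 4 h (3.68%). Without the libraries that stood apart the count over time was 3 in WT, Eprs not among them, 1 in HEA, and 0 in EV and RA.

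Genes around the 45 in the same pathway were read from lists. Their counts at 8 h stand beside 15.2% higher and 20.1% lower over all genes in WT, and 20.2% and 27.5% in HEA. Among 28 other cytosolic initiation factors tested, 6 rose and 3 fell in WT at 8 h, among them the poly(A)-binding protein Pabpc1 (0.31 ± 0.053, adjusted p = 0.00014) and Eif3g (0.25 ± 0.046, adjusted p = 0.000231), and Eif2d, an alternative carrier of initiator tRNA, fell (-0.30 ± 0.084, adjusted p = 0.00862). In HEA 2 of the 28 rose and 4 fell, and Eif2d fell (-0.71 ± 0.084, adjusted p = 9.02e-07). Among 12 other elongation, release and recycling factors, 2 rose and 0 fell in WT: Eef2k, the kinase that inhibits Eef2, from 12.3 ± 0.214 to 28.4 ± 2.58 RPKM (SD, n = 3; 1.17 ± 0.12, adjusted p = 2.3e-07), and Dph2, an enzyme of the diphthamide modification of Eef2 (0.23 ± 0.084, adjusted p = 0.0368). In HEA 1 of these 12 rose and 7 fell, with Dph2 at 14.2 ± 0.421 RPKM against 28.4 ± 1.84 in EV (-0.98 ± 0.084, adjusted p = 1.49e-08) and Dhps, an enzyme that makes the hypusine of Eif5a, at -0.55 ± 0.085 (adjusted p = 2.55e-05). By limma, Eef2 itself differed in HEA by 0.11 ± 0.059 (adjusted p = 0.114) and Eif5a by 0.04 ± 0.054 (adjusted p = 0.567).

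Of 21 mitochondrial synthetases and related enzymes tested, 7 rose and 3 fell in WT at 8 h. Mars2, for mitochondrial methionine, went from 18.9 ± 0.701 to 42.1 ± 5.44 RPKM (SD, n = 3; 1.13 ± 0.097, adjusted p = 3.36e-08), and read 19.4 ± 1.53 in HEA and 15.8 ± 1.25 in RA. Nars2, for asparagine, rose by 0.71 ± 0.11 (adjusted p = 4.45e-05), and Ears2, for glutamate, fell (-0.75 ± 0.18, adjusted p = 0.00306). In HEA 1 of the 21 rose, Cars2 for cysteine (0.96 ± 0.11, adjusted p = 1.04e-06), and 3 fell. Of 9 mitochondrial translation factors, 2 rose in WT, the elongation factors Tsfm (0.41 ± 0.092, adjusted p = 0.00147) and Tufm (0.24 ± 0.067, adjusted p = 0.00785), and 5 fell in HEA, led by the release factor Mtrf1l (-0.58 ± 0.084, adjusted p = 1.31e-05).

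**Figure D4:**
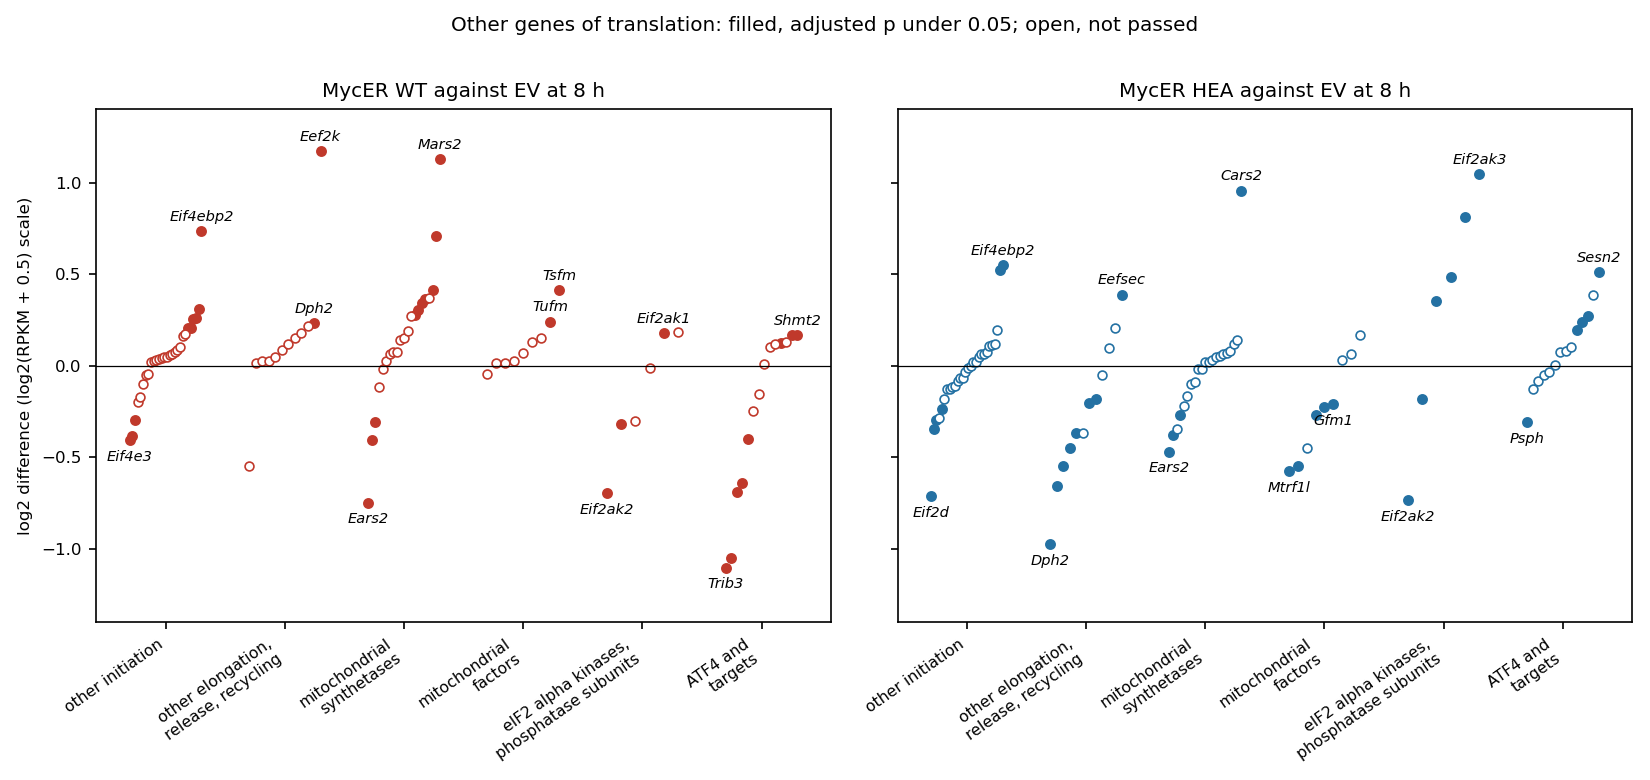
Difference from EV at 8 h (log2(RPKM + 0.5) scale, vertical axis) of each gene tested in 6 further lists of translation genes (horizontal axis), in WT (left) and HEA (right), filled for an adjusted p under 0.05 and ordered by size within a list. Eef2k and Mars2 stand highest in WT, and Eif2ak3 stands highest and Dph2 lowest in HEA.

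The 6 kinases and phosphatase subunits that act on eIF2 alpha changed in both directions. In WT at 8 h 1 rose, the haem-regulated kinase Eif2ak1 (0.18 ± 0.059, adjusted p = 0.0247), and 2 fell, the RNA-sensing kinase Eif2ak2 (-0.70 ± 0.13, adjusted p = 0.000295) and the phosphatase subunit Ppp1r15a (-0.32 ± 0.079, adjusted p = 0.00347). In HEA 4 of 6 rose and 2 fell: the endoplasmic reticulum kinase Eif2ak3 went from 12.6 ± 1.38 to 26.5 ± 0.595 RPKM (SD, n = 3; 1.05 ± 0.12, adjusted p = 7.25e-07), the amino acid sensor Eif2ak4 rose by 0.81 ± 0.084 (adjusted p = 1.59e-07), and Eif2ak2 fell (-0.73 ± 0.13, adjusted p = 0.000107). ATF4, whose translation rises when eIF2 alpha is phosphorylated, and its targets other than synthetases gave 3 of 14 higher, Shmt2 of serine metabolism (0.17 ± 0.049, adjusted p = 0.0117) among them, and 5 lower in WT at 8 h. Chac1, which degrades glutathione, fell from 39.6 ± 3.12 to 18.8 ± 0.682 RPKM (SD, n = 3; -1.05 ± 0.095, adjusted p = 6.8e-08), and Slc7a11, the cystine carrier, fell too (-0.64 ± 0.12, adjusted p = 0.000384). In HEA 4 of the 14 rose and 1 fell. Psat1 had the smallest p of those higher (0.24 ± 0.047, adjusted p = 0.000277). Sesn2, a stress-induced regulator of growth signalling, rose by 0.51 ± 0.15 (adjusted p = 0.00862), and the gene that fell was Psph (-0.31 ± 0.096, adjusted p = 0.0119). The 10 translation factors with 5′ TOP leaders, some of them among the 45, gave 2 higher and 0 lower in WT and 0 higher and 2 lower in HEA.

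The authors' deposited table of comparisons with EV, made with their own test, called 6 members higher and 0 lower in WT at 4 h (7.84% and 9.2% of its genes), and 10 and 0 at 8 h (15.6% and 17%). Iars, Kars, Eif3d, Eif4a1 and Eif4g1, which rose at 8 h by limma, did not pass there. Nor did Eprs, Farsb, Hars, Kars, Eef1d, Eif2b3, Eif2s1 and Eif5a pass there at 4 h, where they rose by limma. Their adjusted p in the authors' test at 4 h ran from 0.0576 (Eif2b3) to 0.211 (Eif5a). Qars, which fell at 4 h by limma, did not pass there either (adjusted p of 0.377). Eif3b, which did not pass by limma, was called higher at 8 h (log2 fold change 0.33, adjusted p of 0.019). Cars passed at neither time (adjusted p of 0.0863 at 4 h and 0.0652 at 8 h). For HEA the authors' deposited table called 1 higher and 3 lower at 4 h (16.8% and 16.2%), and 9 and 6 at 8 h (24.5% and 25.3%). The 3 lower at 4 h were Wars, Eef1e1 and Eif2b2. Tars, Kars and Lars, which fell at 4 h by limma, did not pass there (adjusted p of 0.135, 0.0728 and 0.134). The 6 lower at 8 h were Wars, Tars, Kars, Lars, Eif2b2 and Eef1e1. Qars, which fell at 8 h by limma, did not pass there (adjusted p of 0.075). Eef2 was called higher at 8 h (log2 fold change 0.15, adjusted p of 0.0176) but did not pass by limma. The same held for Iars, Eprs and Eif5b (adjusted p of 0.0258, 0.0369 and 0.0474). For RA the authors' deposited table called none at 4 h (5.36% of its genes in either direction) and 1 lower at 8 h (8.16%), Eef1e1, with a log2 fold change of -0.27 and an adjusted p of 0.0186. In the limma fit Eef1e1 differed in RA at 8 h by -0.30 ± 0.17 (adjusted p = 0.39).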

How the data were processed

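The authors deposited RPKM per gene and library, and a table of comparisons with log2 fold changes and p-values, per the file headers. Build mm9, DESeq2, featureCounts 1.4.5-p1, SAMtools, TopHat and TopHat2 2.0.8 are named, without role or order, per the submitters' processing notes. Total RNA was treated with DNase and made into stranded libraries, per the labels' protocols. No source used here gives the strand setting, the annotation or the treatment of duplicate reads.

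From the deposited RPKM, log2(RPKM + 0.5) was tested with limma 3.58.1 (trend, R 4.3.3) for the 12268 of 21671 genes that reached an RPKM of 1 in 3 or more libraries. All 24 libraries entered 1 fit of 8 group means (16 residual degrees of freedom), with Benjamini-Hochberg adjustment over all tested genes within each comparison and a threshold of 0.05. The scripts were tested on simulated data, where the fit recovered part of the known differences, fewer of the small than of the large, and fewer of the large than the first criterion set, which was then lowered. Log2 differences understate changes of low genes. RPKM steps gave whole reads within 0.01 read for 100% of the 17870 genes above 0. These reads gave the library totals and the voom alternative. Replicate pairs differed beyond sampling noise (chi-square per degree of freedom 1.43 to 17.8), so each library counted once. Alternatives were the pseudocount (0.1, 1), the filter (none, mean RPKM of at least 5), quantile normalisation, median centring, no trend, a replicate block, voom, removal of each library's trend on reads per base, only the groups compared, and each library left out.

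The 45 genes, the lists and the tests were chosen with earlier results of these data known. Values in every library are given for the 8 members of smallest p in WT and the 4 in HEA (8 h, against EV). Named are the 2 members of smallest p in each role, up to 6 called in HEA or RA against EV, in WT against HEA and lower in WT than EV, up to 4 in a difference of effects, and in each other list the smallest p in each direction in WT at 8 h. Farsb, Vars, Hars, Eif2s1, Eif4e, Lars, Rars, Gars, Eif3c, Eif4ebp1, Aars, Eif3a, Dars, Eif5b, Eef2, Eef1g, Eif2b5 and all other genes of the other lists were named after their values were seen. Promoter sequences are from RefSeq (GRCm38.p6), a build other than mm9, used for letters and names alone. Exon overlaps are from GENCODE M21, in which 10 of the 45 genes overlap another protein-coding gene, 8 of them on the opposite strand. Figures were drawn with matplotlib 3.10.9.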

Additional observations from a re-analysis of the deposited data

How the results depend on the processing

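Of the 74 differences of genes named by the rule that passed, 36 passed under every alternative, and none changed direction. Over the recomputed single values, 2964 kept their side of the threshold, 175 lost it, 29 gained it and none that had passed changed direction. Counts of the 45 genes called moved by over 1.5 times as follows. With only the groups compared they were 3 for WT against EV at 4 h (main 16), beside 9.06% of all genes called in that fit. They were 5 for HEA against EV at 4 h (9, beside 29.9%) and 7 for WT against RA at 4 h (17, beside 22.8%). HEA against RA gave 6 at 4 h (10, beside 39%) and 14 at 8 h (9, beside 51.6%). RA against EV at 8 h gave 1 (0, beside 10.7%), the gene being Eef1e1. WT over time gave 0 (2, beside 0%). The 3 libraries that stood apart were left out as a choice made after seeing the data. Without them the counts were 6 for WT against EV at 4 h (beside 20%) and 1 for HEA over time (0, beside 7.65%). For WT over time the count was 1 with quantile normalisation (beside 7.61%) and 1 without the trend (8.35%). It was also 1 after each library's trend on reads per base was taken out (8.53%). With each library left out in turn the count ran from 5 to 15 for WT against EV at 4 h (5 without WT replicate 3, 10 without EV replicate 3), 8 to 13 at 8 h (8 without EV replicate 2 or 3), 20 to 28 and 12 to 22 for WT against HEA, 11 to 20 and 14 to 18 for WT against RA, 6 to 11 and 8 to 10 for HEA against EV, 5 to 13 and 6 to 8 for HEA against RA, 0 to 3 for WT over time, and 0 to 0 for RA against EV. Beside the 5 for WT against EV at 4 h stood 16.6% of all genes, and beside the 8 at 8 h 31.1% or 27.2%. Leaving out libraries leaves fewer degrees of freedom, and the causes of the moves were not tested. Higher and lower WT calls against EV at 8 h were 20 and 0 after median centring and 11 and 2 after quantile normalisation, and at 4 h 17 and 1, and 10 and 2. Replicate numbers did not pair the libraries: same-numbered libraries of a time had correlations of -0.359 to 0.407 (median 0.0261, 11 of 36 over 0.1), and 8 of 24 libraries correlated best with their own number. With the replicate block the WT counts against EV were 14 and 2 at 4 h and 14 and 1 at 8 h, as in the fit without it, HEA gave 1 and 8, and 3 and 7, and the count for WT over time was 0, both Tars and Eprs being lost, as was Farsb in WT at 8 h and Eif3c and Eif4ebp1 in HEA at 8 h. Averaged over the 24 libraries, the 45 genes had 0.12 to 1.87 reads per base, 7 of them above 1. With 3 libraries a group, differences near the SE printed beside them could not be told from 0. Some differences well above their SE, such as that of Eef1g in WT at 8 h, did not pass either.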
